A study of Mus musculus with 10 samples.

Results

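BG5 and E14 are mouse embryonic stem cell lines, and the comparison described here was between the cells of their embryoid bodies that were not sorted as germ cells. The 2 BG5 non-PGCLC libraries and the 2 E14 non-PGCLC libraries were compared, 4 of the 10 libraries in the series. E14 is a male line of 129/Ola background with no reporter. BG5 is a male line of mixed C57BL/6J, DBA and 129 background that carries a Blimp1-GFP reporter. Each background is represented by 1 line, so line, strain and reporter cannot be told apart. All cells were grown in 2i and LIF, primed as epiblast-like cells, and aggregated into embryoid bodies with BMP4, BMP8, LIF, SCF and EGF until Day 6. Primordial germ cell-like cells (mPGCLCs) were gated as Ssea1+/Cd61+ in E14 and as Ssea1+/Blimp1-GFP+ in BG5, and the surrounding cells outside the gate formed the non-PGCLC samples. The deposited protocol text instead describes the Stella-GFP and Esg1-tdTomato gate of a further line, SGET, for every sample. The gates differed between the lines, and no mRNA data were used here, so the cell types outside the gate could be read only from their miRNAs. The design text calls the 2 libraries of a group biological duplicates. The labels do not say whether these came from separate cultures, so p-values rest on the spread between duplicate libraries. In the main fit edgeR estimated that spread over all 5 groups of the 10 libraries, not over the 4 compared libraries alone. The mPGCLC libraries of both lines and the non-PGCLC libraries of SGET (2 each) were used as reference levels. SGET is a male line of mixed B6CBA and 129 background that carries Stella-GFP and Esg1-tdTomato reporters.

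The miRNAs of the miR-290 cluster are the leading miRNAs of mouse embryonic stem cells, where their 3p arms speed the cell cycle and hold back differentiation. The miR-302 cluster, which also holds miR-367 and has the same main seed, is turned on as cells pass from the naive to the primed state. Members of let-7, whose maturation is blocked by Lin28 in pluripotent cells, accumulate as cells differentiate, and miR-125, which targets Lin28, accumulates with them. miR-199a and miR-214 are made from the Dnm3os transcript and are known from mesenchyme. A miRNA selects its targets mainly through its seed, bases 2 to 8 from the 5′ end.

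The mature sequences on which the comparison turned are given 5′ to 3′ from RefSeq (GRCm38.p6), with the seed in capitals. Of 73 arms named by rule, 69 matched a RefSeq mature entry. The others, Mir135b-5p, Mir199b-5p, Mir292-3p and Mir302a-3p, are named by hairpin and arm. The first set shows seeds that arms of the miR-290 cluster share, while others of its arms, such as miR-293-3p and miR-294-5p, carry different seeds. The seed CUCAAAC is shared by 3 of its 5p arms, AAGUGCU is shared by 3 of its 3p arms and by miR-302, and AUCAAAG is shared by miR-291a-5p and miR-291b-5p.
miR-292a-5p: aCUCAAACugggggcucuuuug
miR-290a-5p: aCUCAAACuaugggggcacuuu
miR-293-5p: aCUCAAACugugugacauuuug
miR-291a-3p: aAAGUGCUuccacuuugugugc
miR-294-3p: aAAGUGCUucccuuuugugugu
miR-295-3p: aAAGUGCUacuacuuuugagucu
miR-302b-3p: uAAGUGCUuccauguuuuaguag
miR-291a-5p: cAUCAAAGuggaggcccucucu
miR-291b-5p: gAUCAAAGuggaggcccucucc

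The second set holds members of the let-7, miR-125, miR-199 and Dlk1-Dio3 groups, whose shares were larger in BG5, where let-7 arms share GAGGUAG, miR-125 arms CCCUGAG, and miR-99b and miR-100 ACCCGUA. The last 2 of the set, from the imprinted Dlk1-Dio3 domain, share no seed.
let-7a-5p: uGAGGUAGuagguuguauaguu
let-7c-5p: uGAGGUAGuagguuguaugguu
let-7e-5p: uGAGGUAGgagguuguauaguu
miR-125a-5p: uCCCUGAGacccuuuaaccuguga
miR-125b-5p: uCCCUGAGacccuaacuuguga
miR-99b-5p: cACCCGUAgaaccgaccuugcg
miR-100-5p: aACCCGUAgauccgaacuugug
miR-199a-3p/miR-199b-3p: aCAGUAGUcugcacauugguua
miR-214-3p: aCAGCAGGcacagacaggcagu
miR-433-3p: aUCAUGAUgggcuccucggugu
miR-434-3p: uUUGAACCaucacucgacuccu

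E14 non-PGCLC replicates 1 and 2 held 7421061 and 12899662 reads, and BG5 non-PGCLC replicates 1 and 2 held 9453155 and 14444567. miRNA reads, those of 18 to 26 nt that matched a hairpin in sense, made up 23.0% and 17.9% of all reads in E14 and 32.5% and 21.6% in BG5. Levels are given in RPM, reads per 1000000 reads of the library. Log2 differences come from edgeR's quasi-likelihood test with TMM factors, and adjusted p-values are Benjamini-Hochberg values over all 560 arms tested. Each SE is the absolute log2 difference divided by the square root of the test's F statistic, and not the spread of the replicates. TMM sets the differences relative to the bulk of the arms. When scaled by total reads alone, as RPM values are, the median log2 difference of all arms moved from 0.15 to 1.19, a shift of 1.04 in favour of BG5. A log2 difference is therefore about 1 unit below the ratio of the RPM values beside it. In these bulk samples, fewer cells of a type and less RNA per cell cannot be told apart.

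The miRNAs of pluripotent cells were a minor part of the BG5 profile and the main part of the E14 profile outside the gate. The miR-290 cluster made up 13.5% and 9.32% of all reads in the 2 E14 libraries and 0.780% and 0.906% in the 2 BG5 libraries, 13.5 times less by the group means. In its place, BG5 held more let-7, miR-125, miR-199 and Dlk1-Dio3 miRNA in both libraries. Of 560 arms, 85 (15.2%) passed an adjusted p of 0.05 by edgeR's test, 44 higher (7.86%) and 41 lower (7.32%) in BG5. With total-read scaling 94 arms (16.8%) passed, 72 higher (12.9%) and 22 lower (3.93%). The split between directions thus rests on the scaling, whereas 66 arms were called under both and 0 called arms turned sign. Without E14 replicate 1, 61 arms passed, of which 29 were higher. In RPM, the libraries of the lines did not overlap for 290 arms (51.8%), with both BG5 libraries above both E14 libraries for 223 (39.8%), and 78 of the 85 called arms did not overlap.

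**Figure D1:**
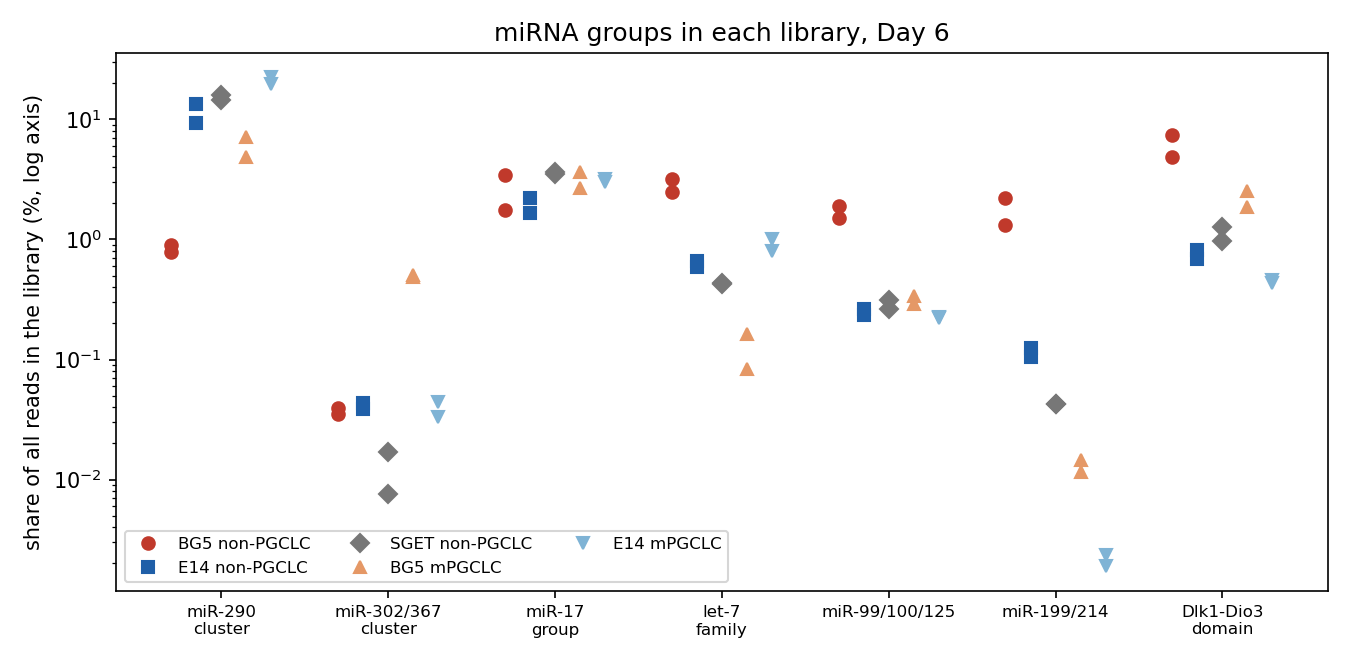
Share of all reads (%, log axis) taken by 7 miRNA groups in each of the 10 libraries, with 1 point per library and 2 per group. The miR-290 cluster lies under 1% in both BG5 non-PGCLC libraries and above 9% in both E14 non-PGCLC libraries, while the let-7, miR-99 to miR-125, miR-199 to miR-214 and Dlk1-Dio3 groups lie the other way round.

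The E14 profile was dominated by a few miRNAs, and the BG5 profile was not. In E14 non-PGCLCs, 3 and 5 arms sufficed for 50% of the miRNA reads, against 20 and 21 arms in BG5. The 10 most abundant arms held 68.5% and 62.4% of the miRNA reads in E14 and 32.8% and 30.4% in BG5. The leading arm of E14 was miR-292a-5p, at 37.8% and 31.8% of the miRNA reads, followed by miR-92a-3p, Mir292-3p, miR-290a-5p and miR-182-5p. The leading arm of BG5 was miR-92a-3p, at 8.41% and 6.57%. Its reads match both Mir92-1, of the miR-17-92 cluster that drives proliferation in many cell types, and Mir92-2 on chromosome X. In BG5 miR-92a-3p was followed by miR-199a-3p/miR-199b-3p, let-7a-5p, miR-335-3p and miR-21a-5p. The 10 leading arms of the lines had 1 member in common, miR-92a-3p. In the mPGCLCs, 9 and 10 arms made up 50% in BG5 and 2 and 3 arms in E14, and in SGET non-PGCLCs 4 and 5 arms did.

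**Figure D2:**
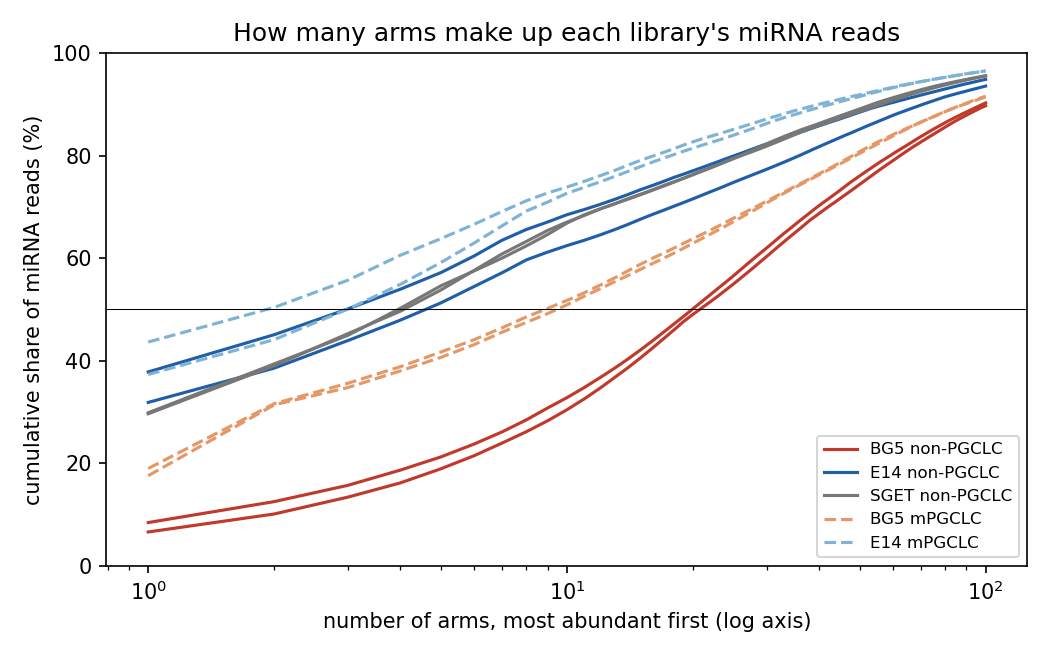
Cumulative share of miRNA reads (%) against the number of arms, most abundant first (log axis), with 1 line per library. Both BG5 non-PGCLC lines cross 50% at 20 and 21 arms, to the right of every other library, and the E14 non-PGCLC lines cross at 3 and 5.

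Over the 560 arms, Pearson's r of log2(RPM + 1) was 0.867 between the BG5 non-PGCLC replicates and 0.839 between the E14 non-PGCLC replicates. These values run across arms, which are not independent replicates, and carry no test. Between the lines r averaged 0.710 over 4 library pairs, from 0.693 to 0.723. BG5 non-PGCLCs averaged 0.722 with the mPGCLCs of their own line, whereas E14 non-PGCLCs averaged 0.814 with theirs, from 0.796 to 0.825. The highest of the latter values lay just under that of the E14 replicates with each other.

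The miR-290 cluster carried the largest part of the difference. It lies on chromosome 7 (GRCm38, plus strand), from the start of Mir290a at 3218626 to the end of Mir295 at 3220841. Mir290a overlaps Mir290b on the opposite strand and no host gene, and the hairpins after it overlap an exon of Nlrp12 on the opposite strand. Of its 14 tested arms, 12 were lower in BG5 and 0 were higher by edgeR, against 7.32% of all arms called lower. The median log2 difference was −4.65, against 0.15 for all arms. With total-read scaling the median was −3.72. miR-292a-5p stood at 87003 and 56904 RPM in E14 and at 4803 and 4767 RPM in BG5. The groups were far apart, with a log2 difference of −4.90 (SE 0.25, edgeR adjusted p = 2.03e-10), or −3.91 with total-read scaling. Its partner arm Mir292-3p, at 11581 and 9621 RPM in E14, was at 589 and 877 RPM in BG5.

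The 3 arms of the cluster with the seed AAGUGCU, a seed known to act on cell cycle inhibitors in stem cells, were as deeply reduced. miR-302b-3p and miR-302d-3p, from another cluster, carry the same seed and did not pass. miR-291a-3p was at 2275 and 1314 RPM in E14 and at 84.2 and 73.7 RPM in BG5 (22.7 times less, log2 −5.51, SE 0.36, edgeR adjusted p = 3.97e-09). miR-295-3p was at 3382 and 2735 RPM in E14 and at 165 and 174 RPM in BG5 (log2 −5.16, SE 0.31). miR-294-3p, the most abundant of the 3, was at 7449 and 4477 RPM in E14 and at 376 and 622 RPM in BG5 (log2 −4.50, SE 0.36). No BG5 library reached the lower E14 library for any of the 3 arms. miR-293-3p and miR-293-5p showed the smallest reductions among the abundant arms, with log2 differences of −4.04 and −4.14. The cluster was not lost to the last read in BG5. At 4803 and 4767 RPM, miR-292a-5p remained above miR-182-5p there, which stood at 2394 and 2419 RPM. miR-290a-3p, at 25.5 and 36.2 RPM in E14, had no read in BG5. Against an assumed 3 reads over the group it was 257-fold lower, a value that leaves out the spread between replicates. The difference passed with TMM (edgeR adjusted p = 0.0452) and did not with total-read scaling (0.0715). That call was lost on leaving out any 1 of the 4 libraries (0.0863 to 0.177).

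The remaining arms of the cluster, both from Mir291b, did not follow it. miR-291b-5p was at 80.1 and 172 RPM in BG5 and at 65.0 and 28.8 RPM in E14, with BG5 above E14 and a log2 difference of 0.55 (SE 0.47, edgeR adjusted p = 0.471). Over 11 alternatives this difference ranged from −0.51 to 1.43, so its sign depends on the processing. In SGET non-PGCLCs, where the cluster made up 14.6% and 16.1% of all reads, miR-291b-5p reached 2207 and 2363 RPM. The start of the reads set the lines further apart. Reads that began at the first base of the RefSeq sequence printed above were at 80.1 and 172 RPM in BG5 non-PGCLCs and at 0.674 and 0.543 RPM in E14 non-PGCLCs. In the mPGCLCs they were at 1037 and 550.2 RPM in BG5 and at 0.483 and 0.746 RPM in E14, so all 4 E14 libraries were under 1 RPM. By contrast, miR-291a-5p, with the same seed, was at 1793 and 1456 RPM in E14 non-PGCLCs. The most frequent miR-291b-5p read in E14 began further upstream (uCGAUCAAaguggaggcccucuaa, bases 2 to 8 in capitals) and made up 28.1% of 854 reads. Of the reads given to this arm, 50.6% and 99.2% in E14 non-PGCLCs held a mismatch to the hairpin. In BG5 non-PGCLCs 26.7% and 44.5% did, so the E14 level of the arm rests largely on inexact matches. miR-291b-3p was at 24.97 and 23.6 RPM in BG5 and at 10.5 and 7.05 RPM in E14. This difference in read starts was noticed in the data, and its cause was not tested.

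**Figure D3:**
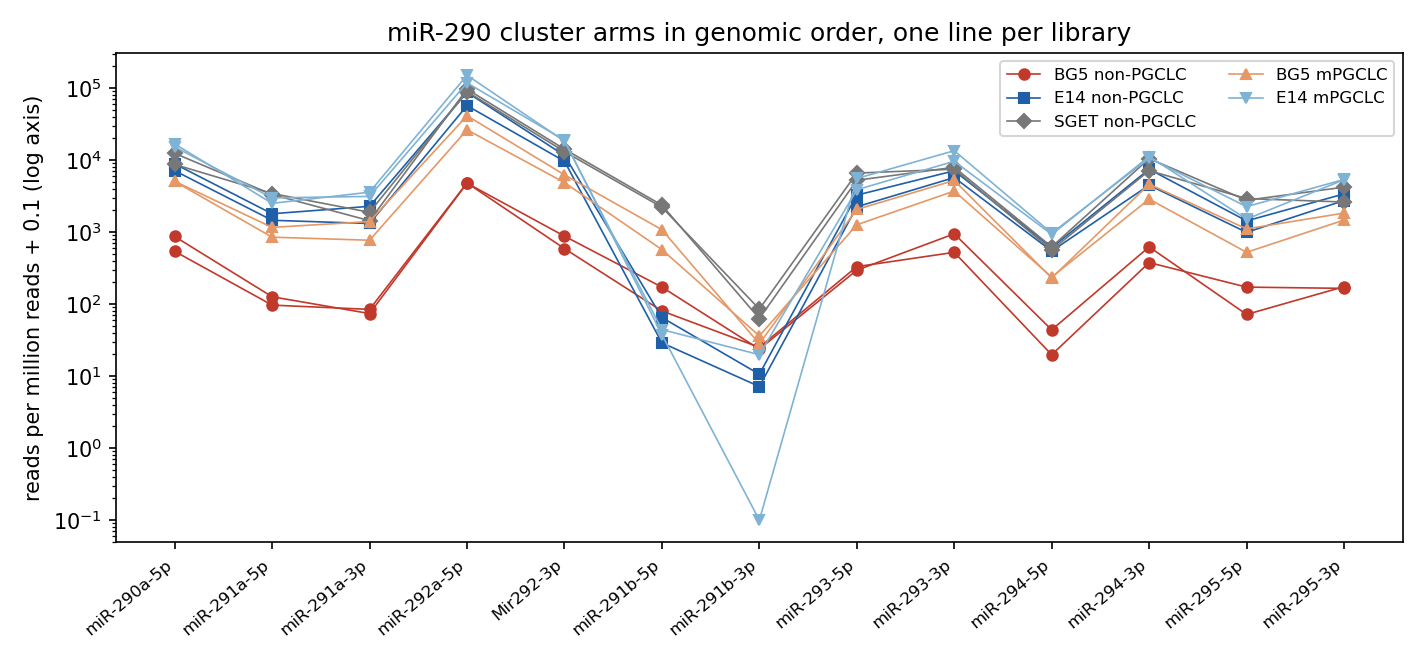
RPM + 0.1 (log axis) of 13 arms of the miR-290 cluster in genomic order, with 1 line per library and colours for the 5 groups. The BG5 non-PGCLC lines run lowest at every arm except the Mir291b arms, where the E14 lines drop below them, with miR-291b-5p at 28.8 to 65.0 RPM in E14 non-PGCLCs.

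The miR-302 cluster, on chromosome 3 in an intron of Larp7 on the opposite strand, was scarce in the non-PGCLCs of both lines. It made up 0.0396% and 0.0354% of all reads in BG5 and 0.0389% and 0.0438% in E14, and the libraries overlapped. Of 8 tested arms, 0 passed in either direction by edgeR, 1 had an unadjusted p under 0.05 and 0 passed by DESeq2, with a median log2 difference of −1.79 (−0.71 with total-read scaling). miR-302b-3p was at 287 and 266 RPM in BG5 and at 218 and 221 RPM in E14, with BG5 above E14 in RPM, a log2 difference of −0.69 with TMM (SE 0.39, edgeR adjusted p = 0.318) and one of 0.33 with total-read scaling. miR-302d-3p was at 66.6 and 150 RPM in E14 and at 56.2 and 53.9 RPM in BG5, below both E14 libraries, and missed the threshold (log2 −2.02, SE 0.70, edgeR adjusted p = 0.0616, and 0.0147 with no filter).

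The miR-17 group, the miR-17-92 cluster and its paralogs, whose main seed AAAGUGC is offset by 1 base from that of miR-294, overlapped between the lines. It made up 3.45% and 1.76% of all reads in BG5 and 2.22% and 1.65% in E14. Of 23 tested arms 4 were lower by edgeR, against 7.32% of all arms, namely miR-93-5p, miR-25-3p, miR-25-5p and Mir363-5p, and 0 were higher, with a median log2 difference of −1.07. With total-read scaling the median was 0.09 and 0 arms passed, so no direction is given to the group. miR-92a-3p was at 27342 and 14174 RPM in BG5 and at 16734 and 11947 RPM in E14. Its log2 difference was −0.55 with TMM (SE 0.20, edgeR adjusted p = 0.0807) and 0.53 with total-read scaling. Without BG5 replicate 1 it was −0.92 (edgeR adjusted p = 0.00228).

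Summed by seed, the reads showed the same exchange. Of 909 seeds tested, 77 (8.47%) passed by edgeR, 33 higher (3.63%) and 44 lower (4.84%) in BG5. Scaled by total reads, 76 seeds (8.36%) passed, of which 55 were higher (6.05%) and 21 lower (2.31%), so this split also depends on the scaling. CUCAAAC made up 42.1% and 36.3% of the miRNA reads in E14 and 1.66% and 2.68% in BG5. AAGUGCU made up 5.47% and 4.60% in E14 and 0.264% and 0.561% in BG5. The let-7 seed GAGGUAG, at 2.75% and 3.19% in E14, was the leading seed of BG5 at 9.47% and 11.2% (log2 1.12, edgeR adjusted p = 0.00211). CCCUGAG, the seed of miR-125, was at 0.883% and 1.11% in E14 and at 4.45% and 5.58% in BG5. AUUGCAC, the seed of miR-92a and miR-25, was at 8.06% and 7.35% in E14 and at 8.82% and 6.85% in BG5, which overlap. Its log2 difference was −0.66 with TMM (edgeR adjusted p = 0.0183) and 0.46 with total-read scaling (0.369). AAAGUGC was at 1.40% and 1.42% in E14 and at 1.41% and 0.960% in BG5, and likewise turned from −0.93 with TMM (edgeR adjusted p = 0.0251) to 0.21 with total-read scaling (0.804).

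The let-7 family made up 3.16% and 2.48% of all reads in BG5 and 0.667% and 0.593% in E14, 4.48 times more by the means, and did not overlap. Of 13 tested arms 4 were higher and 0 lower by edgeR, against 7.86% of all arms called higher. The median log2 difference was 0.96 (1.999 with total-read scaling, under which 7 were higher, against 12.9% of all arms). let-7a-5p was at 9629 and 7100 RPM in BG5 and at 2326 and 1860 RPM in E14 (log2 0.96, SE 0.31, edgeR adjusted p = 0.0452). let-7c-5p was at 5468 and 4519 RPM in BG5 and at 827 and 627 RPM in E14 (log2 1.76, SE 0.36). let-7e-5p, made from the transcript that also holds miR-125a and miR-99b, was at 7719 and 3910 RPM in BG5 and at 894 and 906 RPM in E14 (log2 1.59, SE 0.28). For all 3 arms the lower BG5 library lay above the higher E14 library. let-7b-5p was at 1089 and 1168 RPM in BG5 and at 116 and 81.6 RPM in E14 (log2 2.53, SE 0.72). let-7i-5p, at 1282 and 1747 RPM in BG5 and 111 and 109 RPM in E14, did not pass (edgeR adjusted p = 0.180). It passed with total-read scaling (0.0283), with no filter (0.000400) and in a fit of the 4 samples alone (0.0202), and did not by DESeq2 (adjusted p = 0.0776), with a filter of 100 reads in both samples of a group (0.247), with exact matches (0.283) or on leaving out any 1 library (0.0702 to 0.503). let-7g-5p gave a log2 difference of 0.03 with TMM and 1.07 with total-read scaling. The call of let-7a-5p was lost on leaving out any 1 of the 4 libraries (edgeR adjusted p of 0.0786, 0.141, 0.198 and 0.258). The call of let-7b-5p was lost without BG5 replicate 2 (0.155), E14 replicate 1 (0.133) or E14 replicate 2 (0.174), and that of let-7c-5p without E14 replicate 2 (0.0507).

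The miR-99, miR-100 and miR-125 group, which shares transcripts with let-7, made up 1.91% and 1.502% of all reads in BG5 and 0.263% and 0.233% in E14. Of its 8 tested arms 3 were higher and 0 lower by edgeR, against 7.86% of all arms called higher, with a median log2 difference of 2.45. In all 8 both BG5 libraries lay above both E14 libraries, which held for 39.8% of all arms. miR-125b-5p was at 4361 and 4639 RPM in BG5 and at 311 and 398 RPM in E14, 12.7 times more by the means (log2 2.65, SE 0.49, edgeR adjusted p = 0.000645). miR-125a-5p was at 7630 and 5941 RPM in BG5 and at 1497 and 1270 RPM in E14 (log2 1.26, SE 0.26). miR-99b-5p was at 4193 and 2090 RPM in BG5 and at 589 and 473 RPM in E14 (log2 1.47, SE 0.30). The abundance of miR-125a-5p in E14, close to its 1614 and 1428 RPM in E14 mPGCLCs, contrasted with that of miR-125b-5p, which was at 3.38 and 9.69 RPM in E14 mPGCLCs. miR-100-5p, at 1646 and 1070 RPM in BG5 and 77.5 and 61.6 RPM in E14, did not pass (edgeR adjusted p = 0.181). It passed with total-read scaling (0.0246), with no filter (0.000152) and in a fit of the 4 samples alone (0.00579), and did not by DESeq2 (adjusted p = 0.228), with the 100-read filter (0.249), with exact matches (0.104) or on leaving out any 1 library (0.147 to 0.514).

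The mesenchymal miRNAs of the miR-199 and miR-214 genes were higher in BG5 by 15.3 times by the means. They made up 2.20% and 1.32% of all reads in BG5, 0.106% and 0.124% in E14, 0.0427% and 0.0425% in SGET non-PGCLCs and at most 0.0144% in any mPGCLC library. miR-199a-3p/miR-199b-3p, which the hairpins Mir199a-1 (chromosome 9), Mir199a-2 (chromosome 1) and Mir199b (chromosome 2) share, was the second arm of BG5, at 13281 and 7569 RPM against 756 and 831 RPM in E14 (log2 2.62, SE 0.38, edgeR adjusted p = 7.7e-05). miR-214-3p was at 5985 and 4486 RPM in BG5 and at 260 and 291 RPM in E14 (log2 3.19, SE 0.74, edgeR adjusted p = 0.00515). Both BG5 libraries stood far above both E14 libraries for each arm. Mir214 lies on chromosome 1 (GRCm38, 162223368 to 162223477, plus strand) in an exon of Dnm3os. These were 2 of the 5 arms tested, against 7.86% of all arms called higher, 0 were lower, and the other arms (miR-199a-5p, Mir199b-5p and miR-214-5p) had log2 differences of 3.36 to 3.72 without passing. miR-199a-5p (edgeR adjusted p = 0.109) did pass with total-read scaling (0.0134), with no filter (9.49e-05), in a fit of the 4 samples alone (0.0470), with exact matches only (0.0114) and by DESeq2 (0.0377). The call of miR-214-3p was lost without E14 replicate 1 (edgeR adjusted p = 0.138) or replicate 2 (0.0934).

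The list with the most higher arms came from an imprinted locus. The Dlk1-Dio3 domain of chromosome 12, whose maternal allele gives one long run of miRNAs, made up 7.40% and 4.83% of all reads in BG5 and 0.694% and 0.818% in E14, 8.09 times more by the means. Of its 87 tested arms, which are 15.5% of all arms tested, 22 were higher and 0 lower by edgeR, so it gave 22 of the 44 arms called higher (7.86% of all arms tested). In 73 of the 87 both BG5 libraries lay above both E14 libraries, as in 39.8% of all arms tested, and the median log2 difference was 2.19 (3.28 with total-read scaling). miR-433-3p, whose hairpin (GRCm38 chromosome 12, 109591715 to 109591838, plus strand) lies opposite an exon of Rtl1, was at 5195 and 4137 RPM in BG5 and at 255 and 447 RPM in E14 (log2 2.67, SE 0.42, edgeR adjusted p = 0.000189). miR-541-5p, from an intron of Mirg and the arm of the domain with the highest mean RPM in BG5, carried by replicate 1, was at 7576 and 4556 RPM in BG5 and at 965 and 874 RPM in E14 (log2 1.65, SE 0.28). miR-434-3p was at 6487 and 5342 RPM in BG5 and at 555 and 799 RPM in E14 (log2 2.07, SE 0.31). The groups did not overlap for these arms or for miR-382-5p, at 5806 and 2979 RPM in BG5 and 365 and 335 RPM in E14 (log2 2.55, SE 0.32). miR-369-5p, at 150 and 146 RPM in BG5, had no read in either E14 library (edgeR adjusted p = 0.0442). Against an assumed 3 reads over the group it was 1000-fold higher in BG5, a value that leaves out the spread between replicates. Its call was lost without BG5 replicate 2 (edgeR adjusted p = 0.104) or either E14 library (0.243 and 0.248). That of miR-337-5p, at 821 and 408 RPM in BG5 and 20.9 and 54.4 RPM in E14 (edgeR adjusted p = 0.0132), was lost without BG5 replicate 1 (0.0661) or E14 replicate 1 (0.107). The call of miR-382-3p, at 866 and 597 RPM in BG5 and 16.3 and 97.0 RPM in E14, was lost without BG5 replicate 1 (0.0730), BG5 replicate 2 (0.114) or E14 replicate 1 (0.243).

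Further arms hosted by imprinted genes, outside the lists, were among the 10 most abundant of BG5. miR-335-3p, from an intron of Mest (GRCm38 chromosome 6, 30741299 to 30741396, plus strand), was at 10344 and 5970 RPM in BG5 and at 1129 and 1252 RPM in E14 (log2 1.69, SE 0.26, edgeR adjusted p = 0.000144). miR-483-5p, from an intron of Igf2 (chromosome 7, 142654924 to 142654996, minus strand), was at 8363 and 3626 RPM in BG5 and at 613 and 790 RPM in E14 (log2 1.96, SE 0.40, edgeR adjusted p = 0.00174, and 0.0656 without E14 replicate 1). In SGET non-PGCLCs miR-483-5p was at 53.5 and 28.2 RPM. The imprinted Sfmbt2 cluster of chromosome 2 took no part in this. It made up 0.527% and 0.361% of all reads in BG5 and 0.397% and 0.341% in E14, and of 28 arms 4 were lower, against 7.32% of all arms, and 0 higher by edgeR (0 and 0 with total-read scaling).

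**Figure D4:**
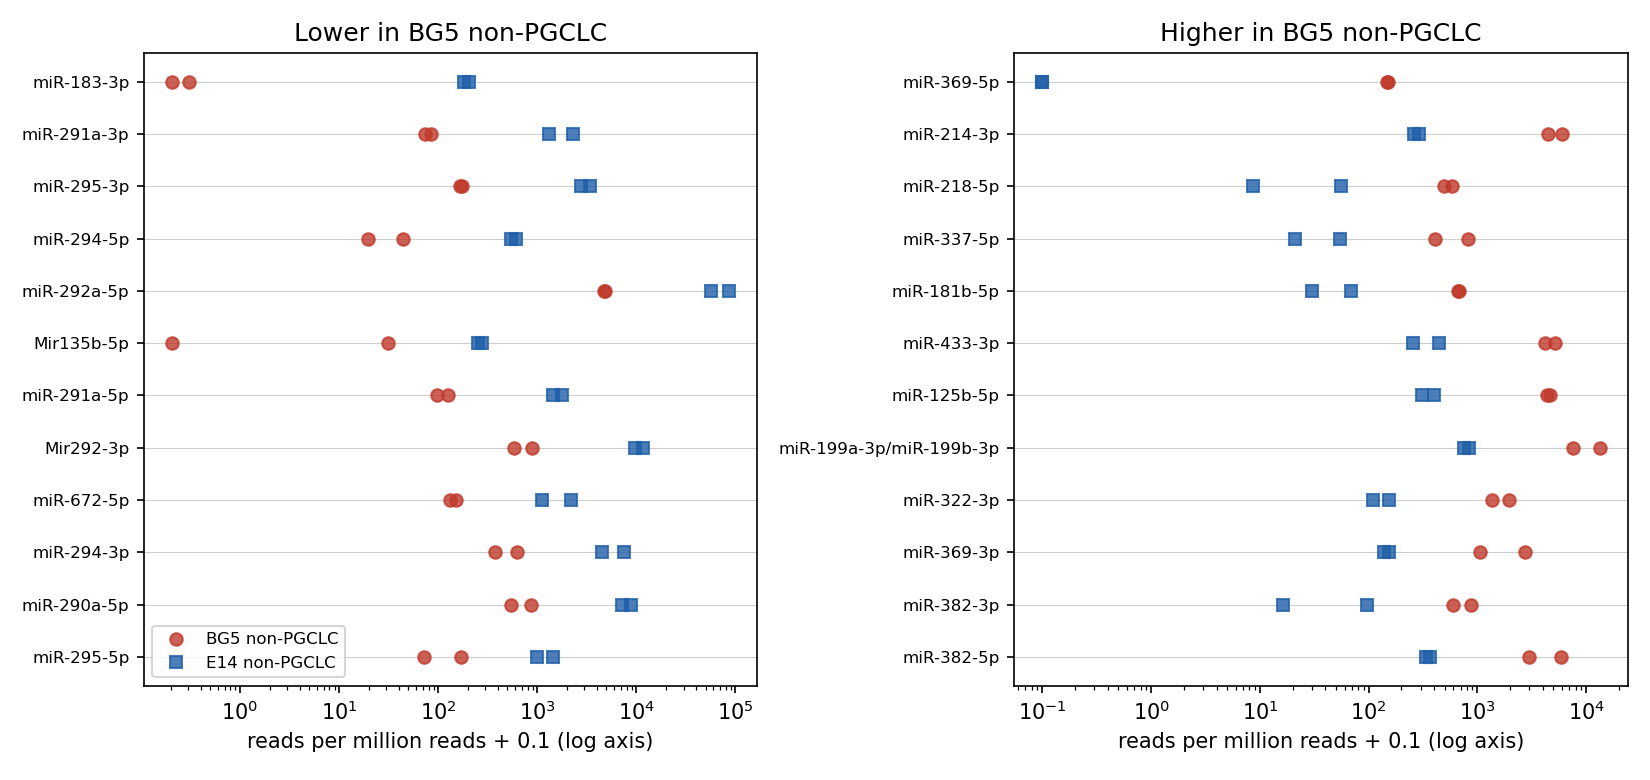
RPM + 0.1 (log axis) of the 12 arms with the largest falls and the 12 with the largest rises in BG5 among those past the threshold, not overlapping and at 100 RPM or more, with 1 point per library. The points of the lines do not overlap for any arm, as the choice of arms required, and the point at 0.1 for miR-369-5p stands for both E14 libraries at 0 reads.

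Other arms in these sets belonged to various loci. miR-21a-5p was at 8148 and 5477 RPM in BG5 and at 1515 and 1403 RPM in E14 (log2 1.16, SE 0.25, edgeR adjusted p = 0.00249). It was one of 2 arms called higher in a list of 30 arms broadly expressed in differentiated cells, near the 7.86% of all arms. In that list 17 differences were negative and 12 positive. miR-322-3p, from the X-linked miR-322 and miR-503 cluster that is tied to cell cycle exit, was at 1946 and 1356 RPM in BG5 and at 109 and 154 RPM in E14 (log2 2.57, SE 0.52). miR-218-5p, encoded in the Slit2 and Slit3 introns, was at 581 and 488 RPM in BG5 and at 55.4 and 8.60 RPM in E14 (log2 3.10, SE 0.78, and 2.34 to 4.83 over 11 alternatives). Each of these was above E14 in both BG5 libraries. miR-181b-5p was at 680 and 657 RPM in BG5 and at 29.8 and 68.8 RPM in E14, and its call (edgeR adjusted p = 0.0319) was lost without BG5 replicate 2 (0.166) or E14 replicate 1 (0.225) and with exact matches only (0.0868). On the lower side, miR-672-5p, from an intron of the X-linked gene Nexmif, was at 150 and 133 RPM in BG5 and at 2180 and 1107 RPM in E14 (log2 −4.54, SE 0.39, edgeR adjusted p = 7.05e-08). Mir135b-5p was at 0.106 and 30.8 RPM in BG5 and at 255 and 277 RPM in E14, a call (edgeR adjusted p = 0.0166) lost without E14 replicate 1 (0.0847) or replicate 2 (0.101).

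The miR-183 cluster of chromosome 6, known from sensory epithelia and also abundant in stem cells, was lower in BG5. It made up 0.560% and 0.418% of all reads in BG5 and 1.27% and 1.11% in E14, and 3 of its 6 arms were lower by edgeR, against 7.32% of all arms. miR-182-5p was at 2394 and 2419 RPM in BG5 and at 7460 and 6008 RPM in E14 (log2 −2.48, SE 0.24, edgeR adjusted p = 4.67e-07). miR-183-5p was at 3127 and 1760 RPM in BG5 and at 4827 and 4806 RPM in E14 (log2 −2.07, SE 0.26), a call lost with total-read scaling (log2 −0.98, edgeR adjusted p = 0.0746). Its partner arm miR-183-3p was at 204 and 184 RPM in E14 but had 1 and 3 reads in BG5, 4 reads against 3885 over the groups. This is a ratio of 1142 (95% exact counting interval 446 to 4194, counting error only), whereas the 5p arm of the same hairpin differed by 1.97 times. In BG5 mPGCLCs miR-183-3p was at 106.2 and 126 RPM.

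Lists of lineage miRNAs are given by their counts, to be read against the 15.2% of all arms called in either direction. Of 7 smooth muscle and stroma arms 1 was higher, Mir143-3p, at 6287 and 4604 RPM in BG5 and at 611 and 550 RPM in E14 (log2 2.18, SE 0.32, edgeR adjusted p = 6.79e-05). Of 12 neural arms 1 was higher, miR-218-5p, with 7 negative and 4 positive differences, a median log2 difference of −1.89, and by DESeq2 1 higher and 3 lower. Of 6 blood arms 1 was lower, Mir150-5p, at no read in BG5 and 55.0 and 72.6 RPM in E14. Of 9 epithelial arms, from the miR-200 family and miR-205, 1 was lower, miR-205-5p, whose libraries overlapped in RPM and which did not pass with total-read scaling (edgeR adjusted p = 0.324). Of the 12 arms of the miR-322 and miR-503 cluster 2 were higher and 0 lower, and of the 30 arms broadly expressed in differentiated cells 2 were higher and 1 lower. In that last list 17 differences were negative and 12 positive, with a median log2 difference of −0.47 (0.41 with total-read scaling). By edgeR, 0 of 4 cardiac and skeletal muscle arms, 0 of 2 endothelial arms and 0 of 5 endoderm arms passed, each with 0 at an unadjusted p under 0.05 and 0 by DESeq2. The levels of these lists were low, with cardiac and skeletal muscle at 0.00762% and 0.00273% of all reads in BG5 and blood at 0.000719% and 0.00825%. Of the defining erythroid miRNAs, Mir451a and Mir144 had no read in any library. Hox cluster miRNAs gave 0 of 6 calls by edgeR, 2 at an unadjusted p under 0.05, 2 with total-read scaling and 0 by DESeq2, and were uneven between the BG5 replicates, with miR-10b-5p at 2475 and 223 RPM against 29.4 and 21.6 RPM in E14.

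The X-linked miR-465 and miR-871 cluster, known from the germ line, had few reads in BG5 non-PGCLCs. It made up 0.00130% and 0.00342% of all reads in BG5, 0.0468% and 0.0289% in E14, and 0.134% and 0.0972% in E14 mPGCLCs. It was at 0.0221% and 0.0159% in BG5 mPGCLCs and at 0.130% and 0.104% in SGET non-PGCLCs, so that the BG5 libraries of each kind lay below the E14 libraries of that kind. Of its 20 tested arms 4 were lower and 0 higher by edgeR, against 7.32% of all arms called lower. miR-465c-5p had 0 and 0.0692 RPM in BG5 and 70.3 and 65.5 RPM in E14, 1 read against 1367 over the groups. That is a ratio of 1608 with a 95% counting interval of 288 to 63544. Both lines are labelled male.

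**Figure D5:**
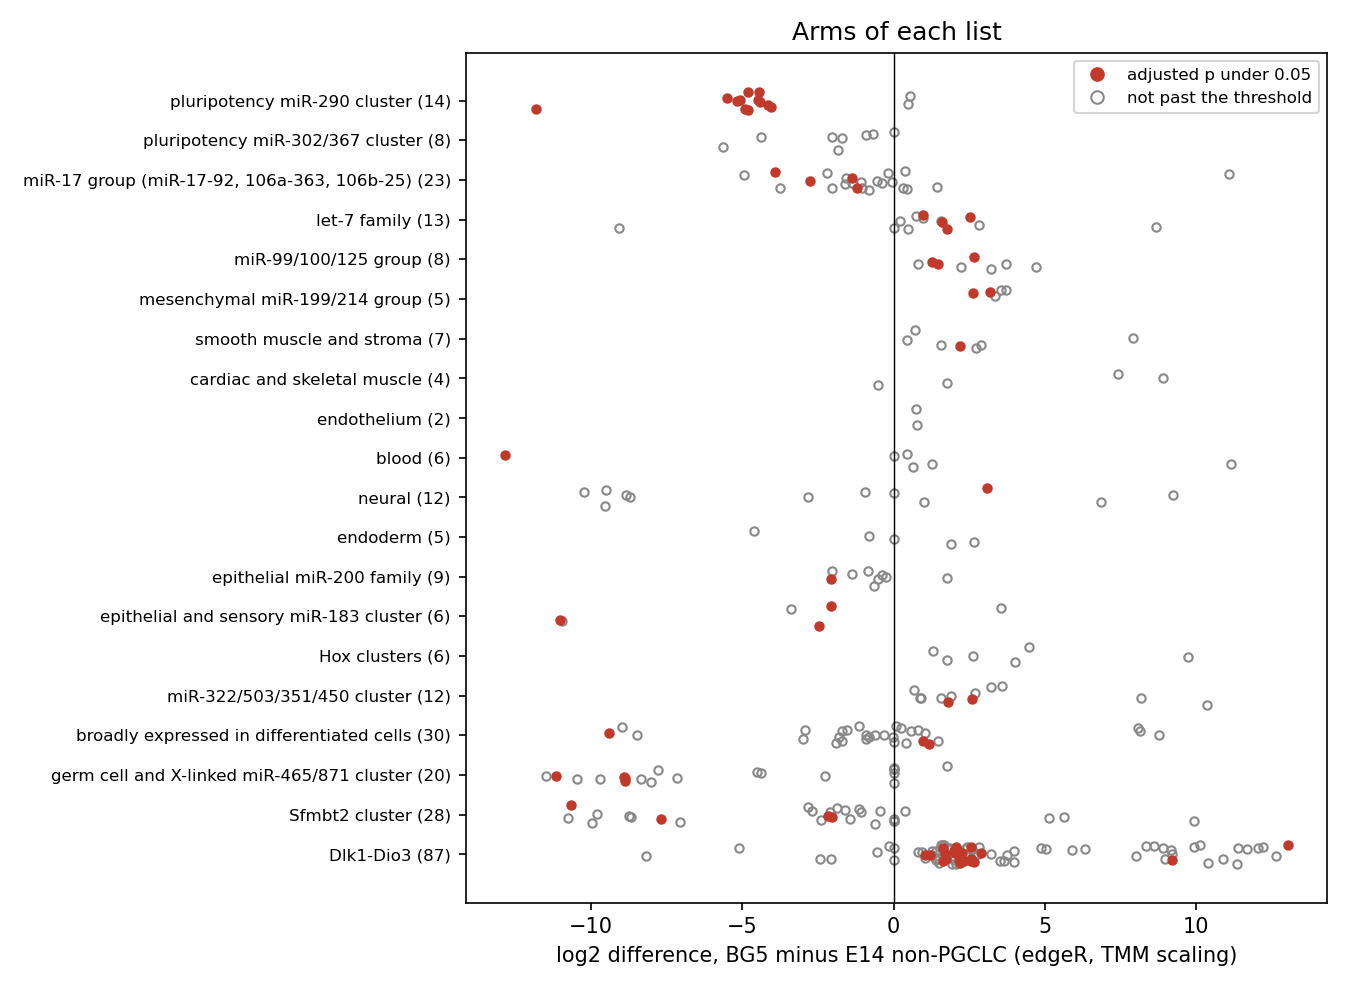
Log2 difference (BG5 minus E14 non-PGCLC, edgeR with TMM) of each tested arm in 20 lists, with the number of arms in parentheses. Filled points passed an adjusted p of 0.05. The miR-290 cluster holds 12 filled points on the lower side, and Dlk1-Dio3 holds 22 on the higher side and none on the lower.

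To ask whether the difference between the lines was particular to the cells outside the gate, the difference in non-PGCLCs was set against that in mPGCLCs as an interaction term over all 560 arms. By edgeR, 31 arms (5.54%) passed, 10 higher (1.79%) and 21 lower (3.75%) outside the gate. With total-read scaling 33 arms (5.89%) passed, 18 higher (3.21%) and 15 lower (2.68%), so this split too rests on the scaling. Without BG5 replicate 1, 32 arms were lower. For the miR-290 cluster 12 of 14 arms passed, 10 of them under total-read scaling as well. miR-292a-5p was 3.91 log2 units lower in BG5 than in E14 non-PGCLCs on the total-read scale, and in mPGCLCs it was at 41191 and 26276 RPM in BG5 and 150300 and 117837 RPM in E14. The extra reduction outside the gate was −2.75 with TMM (SE 0.31, edgeR adjusted p = 1.38e-05) and −1.92 with total-read scaling (0.00630). Within each line, the cluster's share of all reads was 7.10 times lower outside the gate than in mPGCLCs in BG5 and 1.84 times lower in E14, or 9.87 and 1.15 times lower as a share of miRNA reads.

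let-7 stood out because the order of the lines was reversed. let-7a-5p was at 331 and 173 RPM in BG5 mPGCLCs and at 3879 and 2728 RPM in E14 mPGCLCs, with E14 higher, whereas BG5 was higher outside the gate. The interaction was 4.86 with TMM (SE 0.46, edgeR adjusted p = 3.4e-06) and 5.71 with total-read scaling. Of 13 let-7 arms 8 passed, all 8 under both scalings, against 5.54% of all arms with TMM and 5.89% with total-read scaling. The let-7 share of all reads was 22.8 times higher outside the gate than in mPGCLCs in BG5, and 0.698 times as high in E14. As a share of miRNA reads these values were 16.2 and 1.14 times, so that the direction in E14 rests on the denominator. For the miR-302 cluster the contrast lay in the mPGCLCs. miR-302b-3p was at 3068 and 2605 RPM in BG5 mPGCLCs and at 245 and 146 RPM in E14 mPGCLCs (interaction −4.42 with TMM, SE 0.58, edgeR adjusted p = 3.41e-05, and −3.53 with total-read scaling). In that cluster 2 of 8 arms passed with TMM, against 5.54% of all arms.

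For Dlk1-Dio3 0 of 87 arms passed the interaction by edgeR, against 5.54% of all arms. In that list 8 arms had an unadjusted p under 0.05, 6 passed by DESeq2 and 1 with total-read scaling. miR-433-3p was at 1219 and 1026 RPM in BG5 mPGCLCs and at 206 and 112 RPM in E14 mPGCLCs, so that BG5 was higher in both cell types (interaction −0.03, SE 0.56). miR-199 and miR-214 arms gave 0 of 5, against the same 5.54% of all arms, with 0 at an unadjusted p under 0.05 and 0 by DESeq2. Their levels in mPGCLCs were low, with miR-199a-3p/miR-199b-3p at 49.2 and 91.9 RPM in BG5 and 10.9 and 12.1 RPM in E14. The miR-199 and miR-214 share of all reads was higher outside the gate than in mPGCLCs by 135 times in BG5 and 54.1 times in E14, and the share of miRNA reads by 89.7 and 89.9 times.

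The shares of whole groups were also compared over the 4 libraries. With 2 against 2, the two-sided exact permutation test cannot go below p = 0.333. BG5 minus E14 was −10.6 percentage points of all reads for miR-290, 2.19 for let-7, 1.46 for the miR-125 group and 1.64 for the miR-199 group, each at p = 0.333 by the exact test. For miR-302 it was −0.00385 and for the miR-17 group 0.667, both at p = 0.667 by the exact test.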

How the data were processed

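Small RNA libraries had been made with 4N adapters, sequenced on 2 Illumina instruments and joined, and trimmed with cutadapt (3.2). The authors deposited, for each sample, trimmed read sequences with their counts, taken from reads that STAR (2.5.3a) mapped to GRCm38. The part of each library from each instrument is not given in the sources used here. No molecular identifiers were counted, so PCR copies count as reads. Reads of 18 to 26 nt were assigned to 1174 GENCODE vM21 Mir hairpins in sense, with the first 18 nt exact and at most 2 later mismatches. Arms that shared over 50% of their reads, or a RefSeq mature sequence, were joined. Of 762 arms with reads, 560 passed edgeR's expression filter.

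Differences came from edgeR (4.0.16, R 4.3.3), a quasi-likelihood fit of all 10 samples with 5 group means and TMM factors on total reads, with Benjamini-Hochberg adjustment at 0.05. The test was also run on simulated counts with the same spread for every arm, which cannot show how it behaves at the spread of these replicates. Named arms were the members of the miR-290, miR-302, let-7, miR-125 and miR-199 lists, the 10 most abundant arms of either line, and the 12 largest changes per direction among called, non-overlapping arms with a mean of 100 RPM or more in either line. Members and lists were chosen with earlier results of these data known. A fold against a group without reads used a floor of 3 reads over the group. Alternatives were total-read scaling, DESeq2 (1.42.0), other filters, denominators and matches, a replicate block, the 4 samples alone, and each replicate left out.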

Additional observations from a re-analysis of the deposited data

Results flagged for a closer look

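The difference between the lines was itself different outside the gate and in mPGCLCs for 31 of 560 arms, by edgeR's interaction test at an adjusted p of 0.05. Values below are log2 differences of BG5 minus E14 in non-PGCLCs less those in mPGCLCs, with TMM, for named arms.

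In the miR-290 cluster, BG5 was further below E14 outside the gate than inside it. The values were −2.69 for miR-290a-5p, −3.70 for miR-291a-3p, −3.25 for miR-291a-5p, −3.60 for miR-291b-5p, −2.75 for miR-292a-5p, −2.93 for Mir292-3p, −2.54 for miR-293-3p and −2.48 for miR-293-5p. They were −2.79 for miR-294-3p, −2.98 for miR-294-5p, −3.35 for miR-295-3p and −3.02 for miR-295-5p. With total-read scaling, miR-293-5p (edgeR adjusted p = 0.0521) and miR-294-5p (0.0998) did not pass. For miR-291b-5p, BG5 was above E14 in RPM in both cell types.

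For 8 let-7 arms, both BG5 libraries were above both E14 libraries in RPM outside the gate and below them in mPGCLCs, although let-7d-5p, let-7f-5p, let-7g-5p and let-7i-5p did not pass the test between the lines outside the gate with TMM. The values were 4.86 for let-7a-5p, 6.09 for let-7b-5p, 4.50 for let-7c-5p, 4.87 for let-7d-5p, 2.74 for let-7e-5p, 3.56 for let-7f-5p, 3.75 for let-7g-5p and 8.06 for let-7i-5p. let-7i-5p rested on 7.51 and 1.37 RPM in BG5 mPGCLCs.

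For miR-302b-3p (−4.42) and miR-302d-3p (−5.17), the larger difference lay in the mPGCLCs, where BG5 was above E14. miR-183-3p (−10.05) rested on 1 and 3 reads in BG5 non-PGCLCs. miR-182-5p (−1.40) and miR-183-5p (−1.45) did not pass with total-read scaling (edgeR adjusted p of 0.636 and 0.708).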

How the results depend on the processing

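Among 68 named arms tested, 27 of the 40 called passed under each of 11 alternatives. Of 737 values, 671 stayed on their side of the threshold, 24 passed it and 42 no longer did. Values of the other sign numbered 16, over 9 arms, and neither these values nor the main values of those arms passed the threshold. Total-read scaling gave 72 higher and 22 lower arms, 55 higher and 21 lower seeds, and 18 higher and 15 lower arms in the interaction. DESeq2 called 149 arms (76 higher, 73 lower), 190 seeds (101 and 89) and 74 arms in the interaction (29 and 45). The 4 samples alone gave 51 seeds, 24 of them lower, and let-7a-5p (edgeR adjusted p = 0.0988), miR-181b-5p (0.0601), miR-218-5p (0.0975), miR-337-5p (0.0609), miR-382-3p (0.152) and Mir135b-5p (0.163) did not pass there. With at least 100 reads in both samples of a group, let-7a-5p (edgeR adjusted p = 0.0856), miR-290a-3p (0.0599), miR-369-5p (0.0950), miR-382-3p (0.0683) and Mir135b-5p (0.0562) did not pass, nor did miR-290a-3p (0.0517) and miR-181b-5p (0.0868) with exact matches. With 1 replicate left out, and the tested arms held fixed, 29 (without E14 replicate 1) to 39 arms were higher, and 18 to 32 were lower in the interaction. The lone sample is then assumed to vary like the other groups. The log2 ratio of shares ranged from −4.00 to −3.47 for miR-290, from −0.14 (without BG5 replicate 1) to 0.83 for the miR-17 group and from 3.52 to 4.26 for the miR-199 group. With miRNA reads as the denominator the log2 ratios were −4.07 for miR-290, −0.53 for miR-302, 1.77 for let-7, 2.39 for the miR-125 group and 3.48 for the miR-199 group, and with reads of 18 to 26 nt −0.30 for miR-302. The cause of these shifts was not tested. Same-numbered samples did not deviate together (r = −0.0104 over 560 arms). With the number as a replicate block 96 arms passed, among them miR-302d-3p (edgeR adjusted p = 0.00390), let-7i-5p (2.76e-05), miR-100-5p (1.53e-05) and miR-199a-5p (0.000187). Some adjusted p-values fell far with this block and with no filter. That of Mir135b-5p, with 1 and 445 reads in the BG5 libraries, went from 0.0166 by edgeR to 5.54e-12 and 2.07e-08. Passing in these fits is therefore weak support where the main fit did not pass. The interaction under each alternative, the named arms under other filters, matches or samples, the fixed set of arms, and the counts by read start were chosen after seeing the data.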
